A study of Mus musculus with 94 samples.

Results

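Hippocampus of trisomic Ts65Dn mice that had received lamivudine (TS-t) was compared with hippocampus of wild-type mice that had received it too (WT-t), in the expression of single LINE-1 (L1) elements and of L1 subfamilies. The comparison holds 30 of the 94 libraries of the series, 13 of TS-t and 17 of WT-t mice, chosen by their labels for tissue, genotype and treatment. All 30 mice were males, offspring of B6EiC4Sn.BLiA-Ts(1716)65Dn/DnJ females and B6C3F1/OlaHsd hybrid males, on a mixed genetic background. All had lamivudine at 3 mg/kg (Epivir oral solution) in the drinking water for 4 months, per the study's methods, so the comparison asks what trisomy changes under the drug and holds no measure of the drug. The labels give an age of 3 to 4 months for the experiments, and the age at which tissue was taken is not given. The controls were littermates without the extra chromosome. Mice are numbered here within a group in the order of their animal labels. Non-treated trisomic and wild-type mice (TS-nt and WT-nt, 8 hippocampus libraries each) give the same genotype difference without the drug, and their libraries also entered the fits that set the filter, the scaling and the spread. Ts65Dn carries a freely segregating extra chromosome with the distal segment of mouse chromosome 16 (MMU16) and the centromeric end of MMU17, which models Down syndrome and also triplicates MMU17 genes outside the orthologs of human chromosome 21. The table lists L1 elements only, so no marker of hippocampus or of a cell type could be checked in it, and in whole tissue fewer cells of a type and less RNA per cell cannot be told apart.

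L1 elements are retrotransposons that copy themselves through an RNA and a reverse transcriptase of their own, which lamivudine inhibits. Most copies in the mouse genome are old, truncated and immobile, whereas the young L1Md_T, L1Md_A and L1Md_Gf subfamilies hold the copies still able to move, and L1Md_F, L1Md_F2 and L1Md_F3 are older relatives of them. Copies that lie in introns or exons of other genes are also read with the transcript of that gene. L1 RNA is found in brain, where new insertions have been described in neuronal cells.

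The sequences of 2 elements of the study's list of L1s that lie in annotated exons outside protein-coding genes are shown as examples of elements of each of the lists described below. L1Md_F2_dup59906, in an exon of the transcribed pseudogene Gm21926 on MMU17, had the smallest p-value of the elements placed on MMU16 and MMU17. L1_Mus3_dup17767, in A230103L15Rik, a transcript of a type still to be determined, is one of the elements that the study lists as rescued by lamivudine. Each is given 5′ to 3′ on its own strand as 300 bases within the exon, from GENCODE transcripts of build GRCm38, with the letters AATAAA, the hexamer known as a polyadenylation signal, in capitals.
L1Md_F2_dup59906, chr17:3111790-3112089, minus strand, in Gm21926: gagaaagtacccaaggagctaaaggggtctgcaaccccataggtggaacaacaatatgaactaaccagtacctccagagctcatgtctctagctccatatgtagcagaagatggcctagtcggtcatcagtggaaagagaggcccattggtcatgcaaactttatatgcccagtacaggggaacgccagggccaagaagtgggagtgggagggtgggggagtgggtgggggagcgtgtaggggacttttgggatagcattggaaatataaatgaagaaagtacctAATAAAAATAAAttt
L1_Mus3_dup17767, chr7:59329352-59329651, minus strand, in A230103L15Rik: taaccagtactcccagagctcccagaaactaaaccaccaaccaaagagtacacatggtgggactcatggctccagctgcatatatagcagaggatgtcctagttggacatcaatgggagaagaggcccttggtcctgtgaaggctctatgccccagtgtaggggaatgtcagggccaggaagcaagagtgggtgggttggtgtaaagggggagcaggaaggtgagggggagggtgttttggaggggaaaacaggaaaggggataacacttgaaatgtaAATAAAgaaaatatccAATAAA
Both windows held AATAAA 2 times on the strand shown and 0 times on the other, while 11.3% of 32851 mouse promoters of the same length held it on the given strand and 19.6% on either. In the windows of L1Md_F2_dup59906 and L1_Mus3_dup17767 the hexamers lie close to the 3′ end. A match of these letters describes the window and is not evidence of use as a signal.

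A TS-t library had between 223726 and 347160 counts on L1 elements and a WT-t library between 178454 and 327468. Of these, the elements that passed the filter held between 131649 and 172794 counts in TS-t and between 115806 and 170224 in WT-t, and levels below are given as CPM, the counts of an element per 1000000 of these after TMM scaling. The beginnings of the animal labels were unequal between the groups. Labels beginning with 18, 19 and 20 belonged to 1, 4 and 8 TS-t mice and to 6, 8 and 3 WT-t mice, so values are also given within labels beginning with 19 (4 and 8 mice) and 20 (8 and 3). What the beginning stands for is not given in the labels.

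No element was called in TS-t vs. WT-t at an adjusted p-value below 0.1 in edgeR's quasi-likelihood test, out of 4238 tested (0%), and the smallest adjusted p-value was 0.185. At an unadjusted p below 0.05 there were 167 elements, 3.94% of those tested, 81 higher (1.91%) and 86 lower (2.03%) in TS-t. The median log2 fold change of all tested elements was 0.013, the quartiles were -0.20 and 0.25, and 51.7% lay above 0. The coefficient of variation between libraries of a group beyond counting noise, estimated in common for all elements, was 0.622. DESeq2 on the same elements, of which 1691 received an adjusted p, called 12 (9 higher, 3 lower in TS-t), all among the elements named next, and edgeR with the size factors of DESeq2 called 4, all higher in TS-t. In both of these settings the median log2 fold change of all 4238 elements was 0.062, against 0.013 in the main fit. Single libraries decided the count of called elements in edgeR. Without WT-t mouse 11 there were 8 called elements, without TS-t mouse 8 there were 4, without TS-t mouse 4 and TS-t mouse 7 there were 3 each, and without WT-t mouse 4 there was 1, whereas leaving out any of the other 25 libraries left 0.

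**Figure D1:**
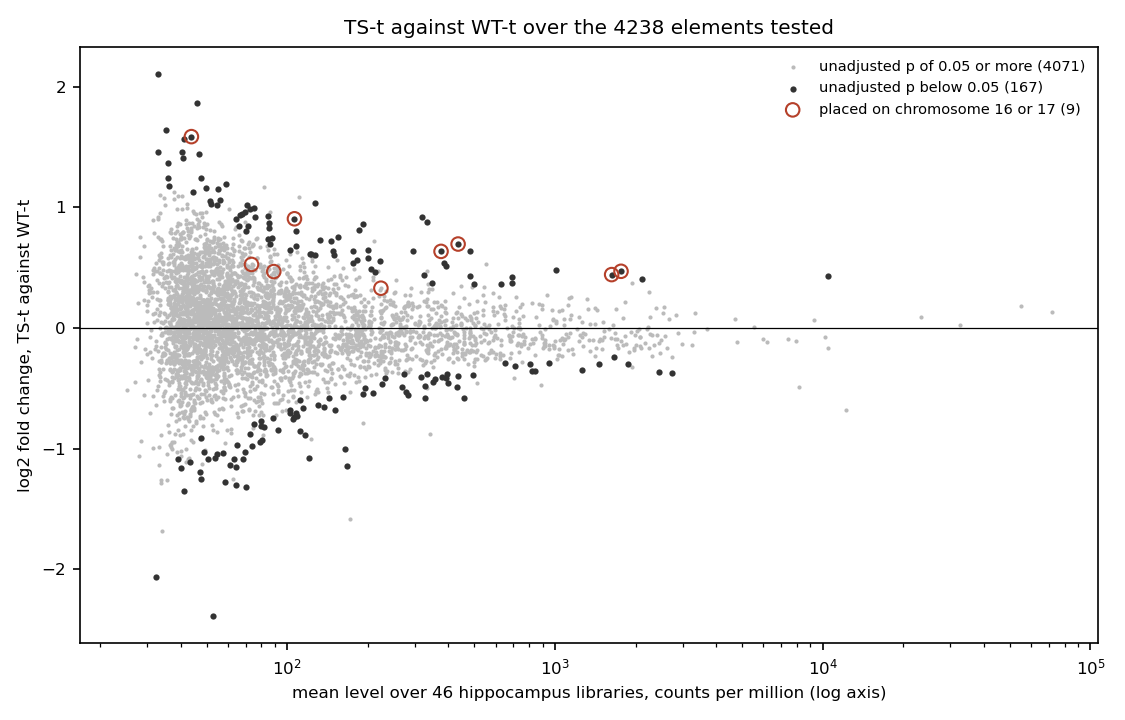
Log2 fold change of each of the 4238 tested elements in TS-t against WT-t hippocampus (vertical axis), by its mean level in CPM over the 46 hippocampus libraries (horizontal log axis). Dark points are the 167 elements with an unadjusted p below 0.05, and circles mark the 9 tested elements of the study's list that lie on chromosome 16 or 17, all of them above 0.

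The elements with the smallest p-values among those higher in TS-t came from subfamilies of different age, and none of the differences was called. L1Md_F_dup1709 lay between 127 and 957 CPM (median 503) in TS-t and between 133 and 561 CPM (median 258) in WT-t. 12 of the 13 TS-t libraries were above the median of WT-t, but the groups overlapped over most of their range (log2 fold change 0.88, SE 0.21, unadjusted p = 8.41e-05, adjusted p = 0.185). The element is in an intron of A330008L17Rik, on the strand of that gene, at chr8:99525609-99526446 (GRCm38). It adjoins L1Md_F2_dup29898, at chr8:99526444-99526923 in the same intron, which lay between 0 and 269 CPM (median 95.1) in TS-t and between 0 and 141 CPM (median 48.6) in WT-t (log2 fold change 0.92, SE 0.43, unadjusted p = 0.0366, adjusted p = 1). The means of L1Md_F_dup1709 were 639 against 274 CPM among mice with labels beginning with 19 and 406 against 346 among those beginning with 20.

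L1VL4_dup4853 was between 183 and 547 CPM (median 411) in TS-t and between 56.1 and 437 CPM (median 181) in WT-t. All 13 TS-t libraries were above the WT-t median, 10 of the 17 WT-t libraries were below the lowest TS-t library, and 6 TS-t libraries were above the highest of WT-t (log2 fold change 0.92, SE 0.23, unadjusted p = 0.000133, adjusted p = 0.185). It was the 1 element called when the beginning of the label was a term in the edgeR model of the 30 libraries, with a log2 fold change of 1.31 (adjusted p = 0.000993). Its means were 488 against 198 CPM among mice with labels beginning with 19 and 331 against 119 among those beginning with 20 (exact permutation test, p = 0.00202 and 0.0182, two-sided).

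HAL1_SS_dup70, of the half-L1 elements that have only the first of the usual reading frames of an L1, lay between 768 and 1596 CPM (median 1185) in TS-t and between 548 and 1098 CPM (median 801) in WT-t. 7 TS-t libraries were above the highest WT-t library, and no WT-t library was above the median of TS-t (log2 fold change 0.48, SE 0.13, unadjusted p = 0.000281, adjusted p = 0.185). Of the young subfamilies only L1Md_T_dup21869 was among the 12 with the smallest p-values in this direction, between 182 and 975 CPM (median 597) in TS-t and between 213 and 646 CPM (median 382) in WT-t (log2 fold change 0.64, SE 0.17, unadjusted p = 0.000361, adjusted p = 0.191). With the beginning of the label as a term its log2 fold change was 0.33 (unadjusted p = 0.1), within labels beginning with 19 it was 0.27 and within those beginning with 20 it was 0.77.

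L1MC4_dup2661, an old element within an exon of the long noncoding RNA 2900052N01Rik and on its strand, was the most abundant of the 12. It lay between 6184 and 20211 CPM (median 13772) in TS-t and between 5922 and 13203 CPM (median 9470.3) in WT-t, and 7 TS-t libraries were above every WT-t library (log2 fold change 0.43, SE 0.13, unadjusted p = 0.00134, adjusted p = 0.473). Its means were 14681 against 9806 CPM among mice with labels beginning with 19 and 11008 against 9406 among those beginning with 20, and only the first of these differences passed an exact permutation test at 0.05 (p = 0.00202 and 0.479). Whether counting used the strand of the reads is not given in the sources used here, so reads of an element and of an exon over it cannot be told apart.

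Lx4B_dup4733 (between genes, nearest to Kctd12), L1MC1_dup5036, L1_Mus2_dup15657 and L1_Mus3_dup36077 were the other 4 elements away from MMU16 and MMU17 or of no known position. Their log2 fold changes were 0.86 (SE 0.25), 1.86 (SE 0.57), 1.04 (SE 0.33) and 2.11 (SE 0.67), with adjusted p-values between 0.415 and 0.618. The largest of them rest on few reads. L1MC1_dup5036 had a median of 11 counts in TS-t and 1 in WT-t, and L1_Mus3_dup36077 a median of 9 and 1. In L1_Mus2_dup15657, 1 TS-t library held 25.8% of the summed CPM of the group. The 3 remaining elements of the 12, on MMU16 and MMU17, are described with the other elements placed there. All 12 kept a positive log2 fold change within labels beginning with 19 and within those beginning with 20, and all but L1Md_T_dup21869 had an unadjusted p below 0.05 with the label as a term. The same libraries had served to pick the 12, so neither is independent evidence.

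**Figure D2:**
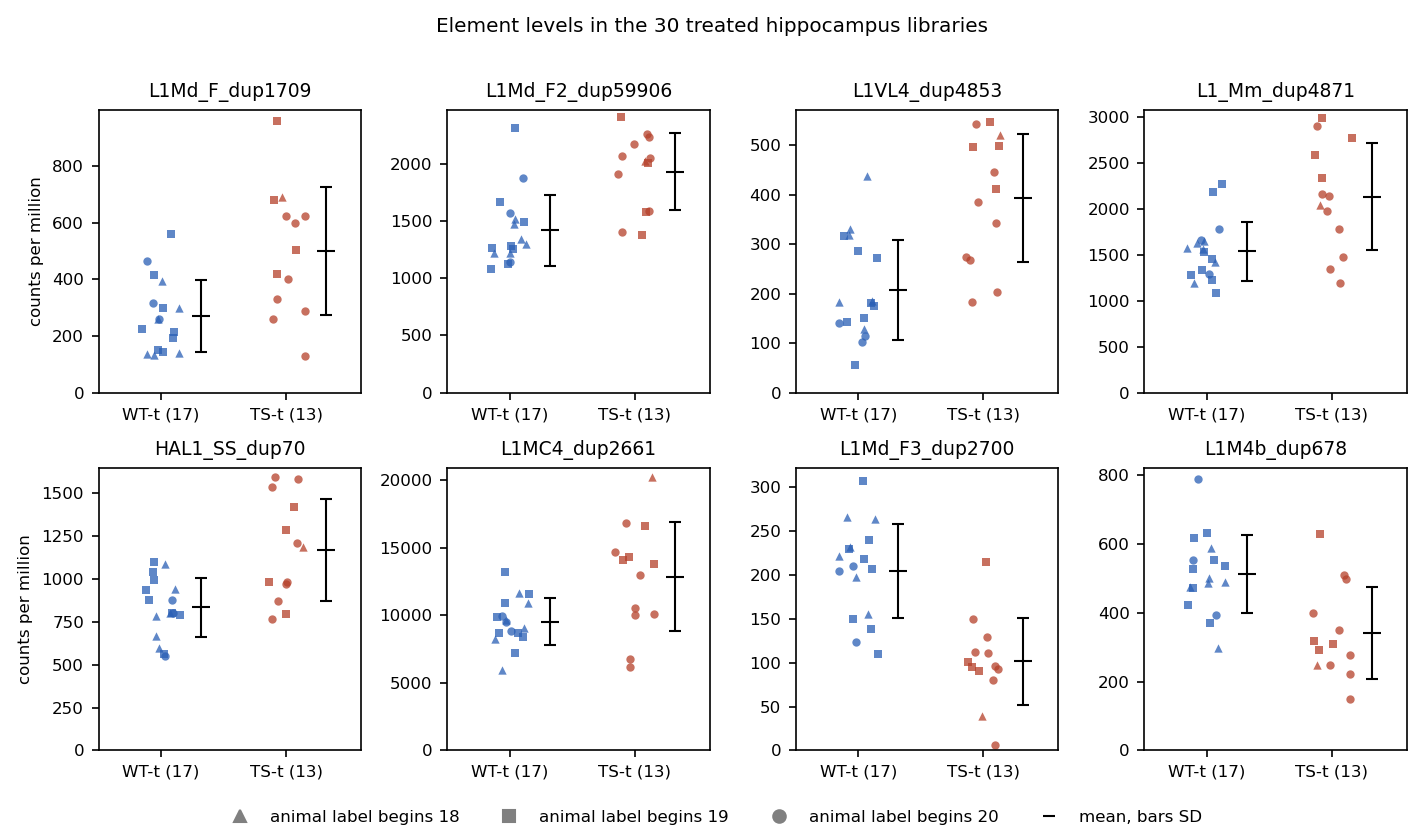
Level of 8 elements in CPM in each of the 17 WT-t and 13 TS-t hippocampus libraries, with the shape of a point giving the beginning of the animal label and the bars the mean and SD. The first 6 elements were higher and the last 2 lower in TS-t, each with overlap between the groups.

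Among the elements lower in TS-t, L1Md_F3_dup2700 lay between 6.54 and 214 CPM (median 96.2) in TS-t and between 110.4 and 307 CPM (median 210.4) in WT-t. All 17 WT-t libraries were above the TS-t median, and 1 TS-t library was above the median of WT-t (log2 fold change -1.01, SE 0.26, unadjusted p = 0.000204, adjusted p = 0.185). L1M4b_dup678, an old element, lay between 151 and 628 CPM (median 309) in TS-t and between 298 and 791 CPM (median 501) in WT-t, with 16 of 17 WT-t libraries above the TS-t median (log2 fold change -0.58, SE 0.15, unadjusted p = 0.000305, adjusted p = 0.185). In non-treated mice the same differences were 0.11 (SE 0.34) and 0.093 (SE 0.21), and the unadjusted p of the genotype by treatment interaction was 0.0103 and 0.0103, which did not pass after adjustment over all elements (adjusted p = 1 for both). Both elements were picked by their difference in treated mice, which is also part of the interaction. The unadjusted p of the interaction is therefore not independent of that choice.

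The other 10 lower elements had log2 fold changes between -2.06 (L1Md_F2_dup52915) and -0.34 (L1M4b_dup171), with adjusted p-values between 0.387 and 0.934. L1_Mus1_dup8377 was between 5.78 and 149.6 CPM (median 65.4) in TS-t and between 44.5 and 249.9 CPM (median 128) in WT-t. The most abundant was Lx5c_dup7571, between 1131 and 2662 CPM (median 2084) in TS-t and between 1946 and 4292 CPM (median 2516) in WT-t (log2 fold change -0.36, SE 0.12). L1MEg2_dup44, on the opposite strand of an untranslated exon of Me3, which encodes a mitochondrial malic enzyme, had a log2 fold change of -1.15 (SE 0.36). The steepest, L1Md_F2_dup52915, had 14 counts over the 13 TS-t libraries and 85 over the 17 WT-t libraries. All 12 lower elements, picked by their difference in these same mice, kept their direction within both label beginnings, which is therefore not independent evidence. DESeq2 called 3 of them, L1Md_F3_dup2700, L1M4b_dup678 and L1_Mus1_dup8377, and 9 of the 12 higher ones.

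Of the 60 elements that the study lists as changed, 14 are placed on MMU16 and MMU17, and 9 of them passed the filter in hippocampus. All 9 had a log2 fold change above 0 in TS-t vs. WT-t, with a median of 0.53, and 6 had an unadjusted p below 0.05, all higher in TS-t, against 51.7% and 1.91% of all tested elements. None was called. The study listed 5 of the 9 as changed between TS-t and WT-nt hippocampus, so their direction here rests on the same TS-t libraries. The other 4, Lx6_dup17183, L1MC1_dup5016, L1ME3Cz_dup944 and L1VL4_dup5634, were listed for cortex, 3 of them from cortex of these TS-t mice. Lx6_dup17183 was listed as lower in TS-nt than in WT-nt cortex, opposite to its direction here (log2 fold change 0.53, SE 0.41, unadjusted p = 0.197). In non-treated mice all 9 were above 0 too (47.4% of all elements were), with a median of 0.51, but the WT-nt libraries and, for L1Md_F2_dup59906 and L1_Mm_dup4871, the TS-nt libraries had also served to pick the list. Neither direction is therefore independent evidence.

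L1Md_F2_dup59906 lies at the centromeric end of MMU17, at chr17:3111781-3112547 on the minus strand within the exon of Gm21926 from which its window was printed. Its level was between 1383 and 2409 CPM (median 2025) in TS-t and between 1084 and 2317 CPM (median 1299) in WT-t. All 13 TS-t libraries were above the WT-t median and 10 of 17 WT-t libraries were below the lowest TS-t library, while WT-t mouse 11 was above every TS-t library but the highest (log2 fold change 0.44, SE 0.11, unadjusted p = 0.000128, adjusted p = 0.185). In non-treated mice the difference was 0.68 (SE 0.15), and the interaction of genotype and treatment was -0.24 (SE 0.19, unadjusted p = 0.207). In cortex of the same treated mice the genotype difference was 0.42 (SE 0.18). Hippocampus means were 1846 against 1437 CPM among mice with labels beginning with 19 and 1962 against 1529 among those beginning with 20 (exact permutation test, p = 0.141 and 0.0727).

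In the distal part of MMU16, 6 listed elements lie in or near Ttc3, Kcnj6 and Dscam, genes of the triplicated segment, or distal to them, and 3 passed the filter. L1Md_F_dup3732, at chr16:98015457-98016275 over an exon of B230307C23Rik on the opposite strand, was between 325 and 1042 CPM (median 583) in TS-t and between 156 and 1032 CPM (median 314) in WT-t. All 13 TS-t libraries were above the WT-t median, and the highest WT-t library, of mouse 11, was nearly as high as the highest TS-t library (log2 fold change 0.70, SE 0.20, unadjusted p = 0.00102, adjusted p = 0.415). Without WT-t mouse 11 it was called, with a log2 fold change of 0.86 and an adjusted p of 0.0188.

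L1MC1_dup5016, at chr16:94750285-94751881 in an intron of Kcnj6, which encodes a potassium channel, and of Gm41505, was between 179 and 2088 CPM (median 349) in TS-t and between 154 and 549 CPM (median 311) in WT-t (log2 fold change 0.64, SE 0.30, unadjusted p = 0.0385, adjusted p = 1). TS-t mouse 7 alone held 32.3% of the summed CPM of the group, and without it the log2 fold change was 0.19. L1ME3Cz_dup944, over an untranslated exon of Ttc3 (a ubiquitin ligase) on its strand, was between 104 and 399.8 CPM (median 242) in TS-t and between 126 and 325 CPM (median 196) in WT-t (log2 fold change 0.33, SE 0.20, unadjusted p = 0.0967, adjusted p = 1). The other 3, Lx4A_dup9528 and L1MEc_dup4826 in introns of Dscam (a cell adhesion molecule) and L1M2_dup16808, had medians of at most 2 counts per library and were not tested, nor were L1M5_dup15311 and L1MD3_dup2285 of MMU17, with medians of at most 1.

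The other tested elements of the study's list on these chromosomes lie away from those segments. L1_Mm_dup4871, at chr16:31386704-31387928 between genes and nearest to 1700007E05Rik, was between 1191 and 2987 CPM (median 2144) in TS-t and between 1083 and 2271 CPM (median 1529.6) in WT-t, and 5 TS-t libraries were above the highest WT-t library (log2 fold change 0.47, SE 0.12, unadjusted p = 0.00022, adjusted p = 0.185). Its difference was 0.71 (SE 0.17) in non-treated mice and 0.57 (SE 0.16) in treated cortex. Its means were 2670 against 1547 CPM among mice with labels beginning with 19 and 1873 against 1576 among those beginning with 20 (exact permutation test, p = 0.00202 and 0.412). L1Md_A_dup15761, of a young subfamily and at chr17:33313153-33315127 nearest to Zfp955b, was between 78.2 and 243 CPM (median 162) in TS-t and between 8.01 and 180.2 CPM (median 76.6) in WT-t, all 13 TS-t libraries being above the WT-t median (log2 fold change 0.91, SE 0.33, unadjusted p = 0.00675, adjusted p = 0.934). Its difference in treated cortex was -0.18 (SE 0.33). The unadjusted p for a difference between the tissues was 0.0396, which did not pass after adjustment over all elements. Hippocampus libraries of these TS-t mice had served to list the element, so that p is not independent of the choice. L1VL4_dup5634 (log2 fold change 1.59, SE 0.59) and L1Md_F2_dup57795 in an intron of Fgd4 (log2 fold change 0.47, SE 0.35) had unadjusted p-values of 0.00855 and 0.182. L1VL4_dup5634 rested on few reads, with a median of 11 counts in TS-t and 1 in WT-t. Its log2 fold change was 2.99 within labels beginning with 19 and 0.50 within those beginning with 20.

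**Figure D3:**
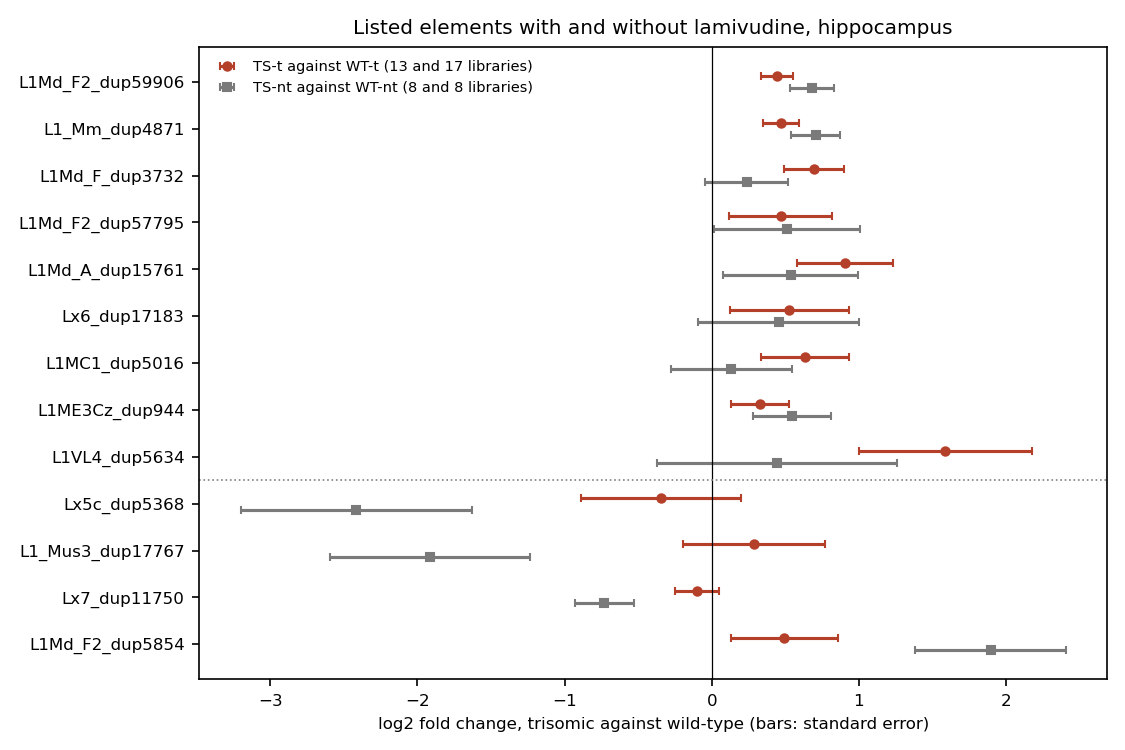
Log2 fold change of trisomic against wild-type hippocampus with its standard error, in treated (circles, 13 and 17 libraries) and non-treated mice (squares, 8 and 8). Above the dotted line are the 9 tested elements of the study's list that lie on chromosome 16 or 17, above 0 with and without the drug. Below it are the 4 elements the study lists as rescued in hippocampus, nearer to 0 in treated mice.

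The study lists 4 elements as rescued in hippocampus, which differed between genotypes in non-treated mice by its own test, so their non-treated values are those that chose them. In treated mice none differed at an unadjusted p below 0.05. Lx7_dup11750, within an exon of the antisense RNA Gm42902, lay between 425 and 1682 CPM (median 923) in TS-t and between 541 and 1293 CPM (median 932) in WT-t (log2 fold change -0.10, SE 0.15, unadjusted p = 0.492, adjusted p = 1), with a difference of -0.73 (SE 0.20) in non-treated mice. The lowest, the median and the highest of L1_Mus3_dup17767, whose window was printed, were 0, 38.9 and 230.2 CPM in TS-t and 0, 32.3 and 213 in WT-t (log2 fold change 0.29, SE 0.48), and its difference was -1.92 (SE 0.68) in non-treated mice. For Lx5c_dup5368 the log2 fold change was -0.35 (SE 0.54) with the drug and -2.41 (SE 0.79) without it, and for L1Md_F2_dup5854 0.49 (SE 0.36) and 1.89 (SE 0.51). The interaction had unadjusted p-values between 0.00924 and 0.034 for the 4, of which none passed over all elements. Of all tested elements 3.11% had an unadjusted p below 0.05 for it. The study chose the 4 by a difference from WT-nt mice in TS-nt mice and none in TS-t mice. Libraries of these groups entered both the choice and the interaction, so its unadjusted p-values are not independent evidence. L1_Mus3_dup17767 rested on 1 library in its direction, since without TS-t mouse 5 its log2 fold change was -0.034.

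The remaining elements of the study's hippocampus list that had been picked from TS-t against WT-nt mice had no unadjusted p below 0.05 here, where both groups were treated. Lx6_dup13936, over an exon of A830082K12Rik on the opposite strand, had a log2 fold change of 0.18 (SE 0.18), L1ME1_dup2108, over an exon of Ric3 on the opposite strand, had a log2 fold change of 0.16 (SE 0.16), and L1MC5_dup3240 had a log2 fold change of -0.49 (SE 0.29), each with an adjusted p of 1. Lx8_dup1602 did not pass the filter, with medians of 2 counts in TS-t and 3 in WT-t. Of the 12 tested elements in that list, 10 were above 0 and the median log2 fold change was 0.46, but TS-t libraries were used to pick them.

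Non-treated mice are other animals, all with labels beginning with 20. The same genotype difference was measured in them, but the filter, the scaling and the spread of an element were shared with treated mice. TS-nt vs. WT-nt had 3 called elements (0.0708%) and 171 with an unadjusted p below 0.05 (4.03%). Of these 171, 18 (10.5% of them and 10.8% of the 167) also had an unadjusted p below 0.05 in TS-t vs. WT-t, against 3.94% of all tested elements, 16 in the same direction (10 higher, 6 lower in trisomic mice) and 2 opposite. Across all 4238 elements the 2 log2 fold changes had a Pearson r of 0.026, as a description over elements counted in the same libraries, and 50.7% had the same sign.

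The 10 that were higher in both were L1Md_F2_dup59906, L1_Mm_dup4871, L1MC4_dup2661, L1VL4_dup4853, L1Md_T_dup21869, L1M3e_dup573, Lx8_dup45029, Lx3_Mus_dup9085, L1Md_F2_dup29898 and L1ME1_dup2333. For L1VL4_dup4853 the non-treated difference was 0.95 (SE 0.31), for L1MC4_dup2661 0.43 (SE 0.17) and for L1Md_T_dup21869 0.64 (SE 0.24), beside 0.92, 0.43 and 0.64 in treated mice (0.33 for the last with the label as a term). L1M3e_dup573 was between 443 and 1132 CPM (median 747) in TS-t and between 282 and 775 CPM (median 553) in WT-t (log2 fold change 0.42, SE 0.15). The 6 lower in both were L1_Rod_dup4382, L1MC5_dup3054, L1_Rod_dup3078, L1M4b_dup1578, L1MA6_dup3502 and Lx9_dup31503. L1MC5_dup3054, the most abundant of them, lay between 337 and 4158 CPM (median 2205) in TS-t and between 2268 and 4248 CPM (median 2950.3) in WT-t, so that all 17 WT-t libraries were above the TS-t median (log2 fold change -0.37, SE 0.16, and -0.43 (SE 0.21) in non-treated mice). L1_Mur2_dup3564 and Lx9_dup32769 were the opposite ones, lower in TS-t (-0.93 and -0.41) and higher in TS-nt (1.03 and 0.53).

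None of the 5 most abundant elements of hippocampus had an unadjusted p below 0.05 in TS-t vs. WT-t over all labels. L1ME3Cz_dup549, the first, lay between 37774 and 114528 CPM (median 81816) in TS-t and between 32737 and 110230.0 CPM (median 66422) in WT-t (log2 fold change 0.13, SE 0.16). Lx7_dup29483 had the narrowest error, with a log2 fold change of 0.028 (SE 0.079), and L1MEi_dup274 had a log2 fold change of 0.090 (SE 0.16). Lx3B_dup3459 and L1MEd_dup2089 spread far within both groups, between 123 and 20352 CPM (median 9475) in TS-t and between 95.2 and 28818 CPM (median 13604) in WT-t for the former (log2 fold change -0.68, SE 0.72) and between 849 and 111965 CPM (median 56696) and between 22074 and 73364 CPM (median 52859) for the latter (log2 fold change 0.18, SE 0.28). For Lx3B_dup3459, 3 of 13 TS-t libraries were above the WT-t median, and it was higher in TS-t within labels beginning with 19 (log2 fold change 0.59) and lower within those beginning with 20 (-1.53). L1ME3Cz_dup549, L1MEd_dup2089 and L1MEi_dup274 were also higher within labels beginning with 19, by 0.56, 0.60 and 0.50 on the log2 scale. In edgeR these had unadjusted p-values of 0.0407, 0.0535 and 0.0387 (adjusted p between 0.772 and 0.817). An exact permutation test of their mean CPM, two-sided, gave p = 0.0283, 0.0424 and 0.0343. Their log2 fold changes were 0.066, -0.10 and -0.020 within labels beginning with 20. With the label as a term L1ME3Cz_dup549 was at 0.33 (unadjusted p = 0.0452, adjusted p = 0.933).

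Summed over their copies, 132 subfamilies were tested and none was called (0%), with a smallest adjusted p of 0.289, while 13 had an unadjusted p below 0.05 (9.85%), 7 higher (5.3%) and 6 lower (4.55%) in TS-t. Sums varied less between libraries than single elements, with a common coefficient of variation beyond counting noise of 0.154. L1Md_F had the smallest p-value and was between 2381 and 3263 CPM (median 2873) in TS-t and between 2098 and 3317 CPM (median 2447) in WT-t, of counts on tested subfamilies, with a log2 fold change of 0.18 (SE 0.057, unadjusted p = 0.00219, adjusted p = 0.289). Its most abundant copy, L1Md_F_dup3732 of MMU16, held 10.0% of its counts, and without that copy the difference was 0.12. L1Md_F was called without WT-t mouse 9 (adjusted p = 0.097), without WT-t mouse 11 (0.0289) and without TS-t mouse 8 (0.0457).

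HAL1_SS, L1_Mm, L1VL4 and L1Md_F2 were the next higher ones by p-value. HAL1_SS had a log2 fold change of 0.40 (SE 0.15), and HAL1_SS_dup70 alone held 97.1% of its counts. L1_Mm had 0.13 (SE 0.056), and 0.032 without L1_Mm_dup4871, its most abundant copy. It was called without TS-t mouse 8 (adjusted p = 0.0457). L1VL4 and L1Md_F2, in which no copy held more than 7.08%, had 0.096 (SE 0.037) and 0.047 (SE 0.018). L1M4, L1MDa, Lx5c, L1MD and L1MC5, old subfamilies, were the lower ones with the smallest p-values, with log2 fold changes between -0.15 (L1MC5) and -0.054 (Lx5c).

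The young subfamilies, which hold the mobile copies, showed no call. L1Md_T was between 21308 and 26990.0 CPM (median 23491) in TS-t and between 20312 and 25064 CPM (median 22508) in WT-t, with a log2 fold change of 0.056 and a 95% interval of -0.016 to 0.13 (from the SE). L1Md_A had 0.058 (-0.0069 to 0.12) and L1Md_Gf, the least abundant, 0.15 (-0.013 to 0.31). L1Md_F3 had 0.012 (-0.052 to 0.077). Of the 235 tested elements of L1Md_T, L1Md_A and L1Md_Gf, 138 were above 0 and 97 below, with 5 in each direction at an unadjusted p below 0.05 and a median log2 fold change of 0.081. Over all tested elements 51.7% were above 0, 1.91% were higher and 2.03% lower at that p, and the median was 0.013.

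**Figure D4:**
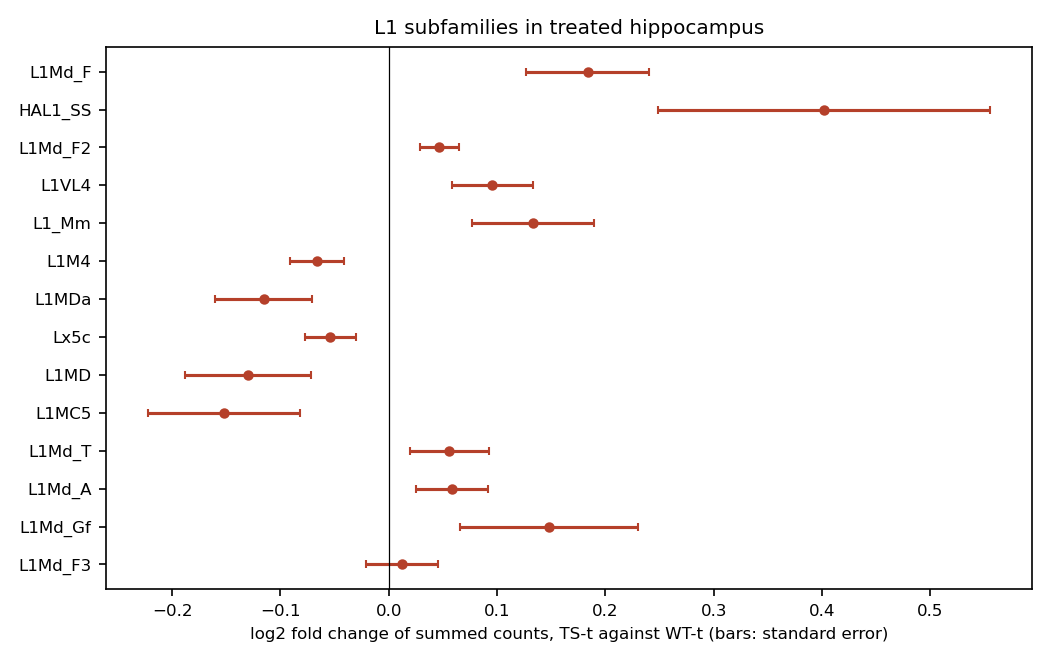
Log2 fold change of summed counts in TS-t against WT-t hippocampus with its standard error, for the 5 higher and 5 lower subfamilies with the smallest p-values and for L1Md_T, L1Md_A, L1Md_Gf and L1Md_F3. HAL1_SS and L1Md_F stand farthest above 0 and L1MC5 and L1MD farthest below, and none was called.

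Subfamilies were grouped by their names into 15 classes. No class took a different share of L1 counts in TS-t and WT-t after adjustment over the classes (two-sided permutation test, 100000 resamples, smallest adjusted p = 0.165). The class of L1Md_F, L1Md_F2 and L1Md_F3 held 7.61% ± 0.333 in TS-t and 7.33% ± 0.305 in WT-t (SD, n = 13 and 17; p = 0.0219, adjusted p = 0.165). That difference of 0.28 percentage points was 0.011 within labels beginning with 19 and 0.082 within those beginning with 20 (exact permutation test, p = 0.919 and 0.739), so it was not seen within either. The 3 lowest shares were of WT-t mice with labels beginning with 18, a beginning with too few TS-t mice (1) for a value of its own. The class of L1Md_T, L1Md_A and L1Md_Gf held 3.95% ± 0.265 in TS-t and 3.77% ± 0.223 in WT-t (p = 0.0535, adjusted p = 0.243, permutation test), with differences of 0.067 and 0.074 points within the label beginnings.

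Lx3 and Lx4 elements held 4.44% ± 0.350 in TS-t and 4.86% ± 0.473 in WT-t (p = 0.0123, adjusted p = 0.165, permutation test), and -0.097 percentage points were left of the difference of -0.42 when the most abundant element of each class, here Lx3B_dup3459, was left out. Within labels beginning with 19 the difference was 0.12 points and within those beginning with 20 it was -0.95 (exact permutation test, p = 0.00606, adjusted p = 0.0909). The old L1M1 to L1M8 class held 6.96% ± 0.373 in TS-t and 7.15% ± 0.265 in WT-t (p = 0.102, adjusted p = 0.307, permutation test). Within labels beginning with 19 it was lower in TS-t, at -0.45 points (exact, p = 0.00202, adjusted p = 0.0303). Also lower there were L1MC and L1MD at -0.67 points, HAL1 at -0.26 and the small class of other L1 at -0.049 (adjusted p between 0.0303 and 0.0909). Within labels beginning with 20 these classes were at -0.12, 0.099, 0.15 and -0.054 points (exact, adjusted p = 0.915 for each). Shares of a library are parts of the same total. L1ME was 1.88 points higher in TS-t within labels beginning with 19 (exact, p = 0.119, adjusted p = 0.358). Whether the lower shares go with that higher one was not tested.

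**Figure D5:**
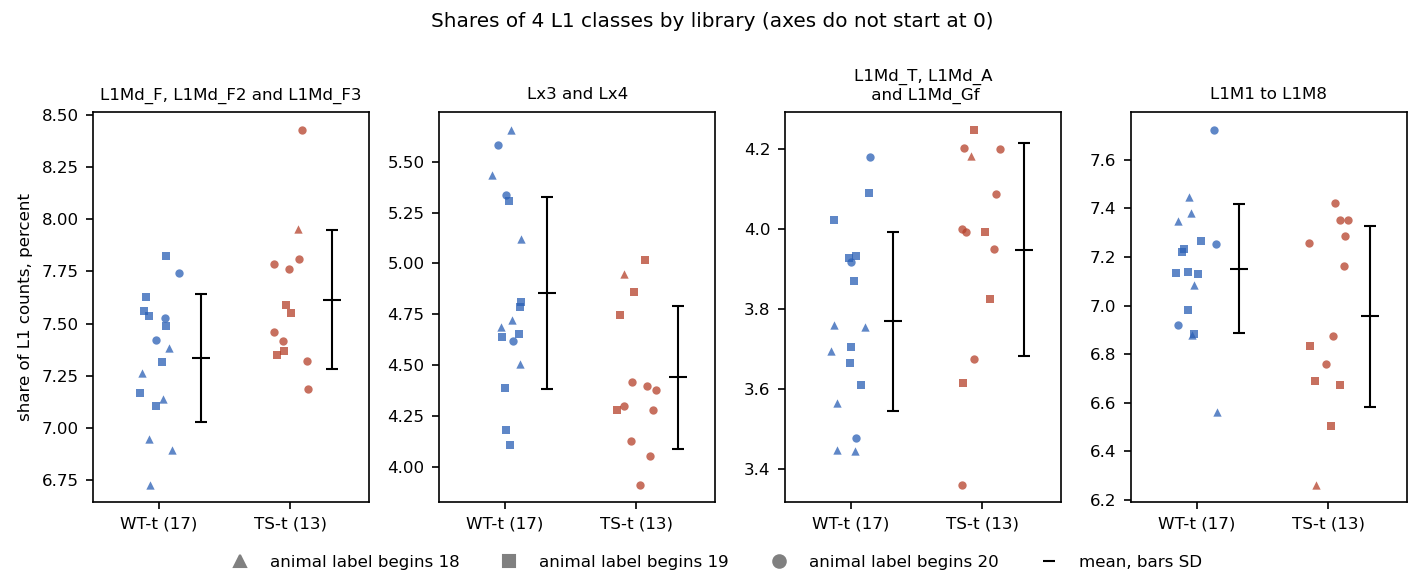
Share of L1 counts in percent held by 4 classes of L1 elements in each of the 17 WT-t and 13 TS-t hippocampus libraries, with the shape of a point giving the beginning of the animal label and bars the mean and SD, and the vertical axes do not start at 0. Shares of the groups overlap in every class, and the 3 lowest shares of L1Md_F, L1Md_F2 and L1Md_F3 are of WT-t mice with labels beginning with 18.

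Summed over all elements, L1 counts per library were 277755 ± 38500 in TS-t and 252075 ± 41280 in WT-t (SD), a difference that did not pass a two-sided permutation test (p = 0.0947, adjusted p = 0.284 over 3 measures of a library). The difference was 10280.5 counts within labels beginning with 19 and 5059 within those beginning with 20 (exact permutation test, p = 0.703 and 0.879). The number of elements with a count was 40099.8 ± 12127 and 36958 ± 7886 (p = 0.396, permutation test), and the share of the most abundant element was 4.30% ± 0.999 and 4.06% ± 1.02 (p = 0.527, permutation test). Reads of other genes were not used here, so a total moves with the depth of a library as well as with L1 RNA.

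No element was called for an interaction of genotype and treatment in edgeR, out of 4238 (0%, 132 at an unadjusted p below 0.05, 3.11%), nor by DESeq2 (172). In cortex of the same 30 mice TS-t vs. WT-t had no called element of 4029 (0%), and 102 at an unadjusted p below 0.05 (2.53%). No element was called for a difference between hippocampus and cortex in the genotype effect with the mouse as a block (0%), and 55 had an unadjusted p below 0.05 (1.37%). Set beside each other, the log2 fold changes in hippocampus and cortex were 0.88 and 0.95 (SE 0.26) for L1Md_F_dup1709, 0.92 and 0.81 (SE 0.30) for L1VL4_dup4853, and 0.48 and 0.51 (SE 0.17) for HAL1_SS_dup70. Those of L1Md_F3_dup2700 were -1.01 and -0.057 (SE 0.35), with an unadjusted p of 0.0479 for the difference between tissues. Those of L1Md_T_dup21869 were 0.64 and 0.22 (SE 0.22), and those of L1_Mus2_dup15657 1.04 and 0.21 (SE 0.34). Of the 12 higher and the 12 lower elements, 11 each were tested in cortex, where 8 and 1 had an unadjusted p below 0.05, and 0 and 4 had one for the difference between tissues. All were picked by their difference in hippocampus of the same mice, so neither tally is independent evidence.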

How the data were processed

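Total RNA of hippocampus and cortex was sequenced by the authors from stranded, ribosomal RNA-depleted libraries. Per the labels and the study's methods, reads were trimmed with Trimmomatic 0.38, aligned to GRCm38/mm10 with HISAT2 2.1.0 with up to 5 alignments per read, and assigned to single L1 elements with Telescope, a tool that assigns reads with several alignments by a statistical model. The deposited values are raw counts per element, not normalized; reads with more alignments than allowed are incompletely placed, which touches young, near-identical copies most, so single copies of one subfamily are uncertain. StringTie 2.1.3b, also named in the processing notes, was for genes. The authors' own fold changes and p-values were not used.

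Elements were kept by filterByExpr (minimum count 10, minimum total 15), scaled by TMM, and tested by quasi-likelihood in edgeR (edgeR 4.0.16, limma 3.58.1, R 4.3.3; robust fits; 46 hippocampus libraries of 4 groups in the model; contrast TS-t minus WT-t), with Benjamini-Hochberg adjusted p-values and a threshold of 0.1. Standard errors were taken from the F statistic. Subfamilies (name before _dup) were summed. Shares and totals were compared with permutation tests (Python 3.11.15, numpy 2.4.6, pandas 2.3.3). DESeq2 1.42.0 was an alternative, beside other filters, normalizations and sets of libraries, and the fits were tested on simulated data. No 2 of the 30 libraries held identical counts. Each library was taken as 1 mouse, as labelled; the methods also mention pools of 3 per condition, in which case n would be pools. The members and lists were chosen with earlier results of these data known. Elements named were the 12 with the smallest p in each direction, the study's hippocampus elements and those on MMU16 and MMU17, those with p below 0.05 in treated and non-treated mice (chosen after their values were seen), and the 5 most abundant; subfamilies were the 5 with the smallest p in each direction, L1Md_T, L1Md_A and L1Md_Gf, and L1Md_F, L1Md_F2 and L1Md_F3. Positions are from the study's list and were compared with GENCODE vM21. Some items are not reported here.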

Additional observations from a re-analysis of the deposited data

How the results depend on the processing

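The count of 0 called elements stayed at 0 in edgeR with only the 30 libraries, at an adjusted p below 0.05, within labels beginning with 20, and in DESeq2 with only the 30 libraries and all 97112 elements of at least 10 counts. It became 12 with DESeq2 and 4 groups, 4 with the size factors of DESeq2, 1 with the label beginning as a term in the 30 libraries, 13 within labels beginning with 19 (4 of them among the 12 of DESeq2), and 7 at an unadjusted p below 0.05 with a log2 fold change of 1.5 or more in either direction. With at least 10 counts in total it was 13378 of 126067, and with no filter 25101 of 270853. In these fits 17.7% and 20.4% of elements had an unadjusted p below 0.05, and the called elements had a median of 15 and 10 counts over 46 libraries; the cause was not tested. Leaving out 1 library gave between 0 and 8 elements and between 0 and 2 subfamilies. The count of 0 subfamilies stayed at 0 in the other 6 settings, as did those of the interactions with treatment (2 settings) and with tissue (2, of which 1 had no mouse block). The count of classes that passed was 4 within labels beginning with 19 and 1 within those beginning with 20. The difference in L1 total stayed above 0 and did not pass in all 4 settings, and was 10280.5 counts within labels beginning with 19 and 5059 within those beginning with 20.

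Some values that had not passed changed sign. Within labels beginning with 19 these were L1Md_F2_dup5854 (-0.077), Lx3B_dup3459 (0.59) and L1ME1_dup2333 (-0.28), and within labels beginning with 20 L1MC5_dup3240 (0.12), L1MEd_dup2089 (-0.10), L1MEi_dup274 (-0.020) and Lx6_dup17183 (-0.57), all log2 fold changes. Lx7_dup29483 was at -0.011 with no filter and between -0.027 (without TS-t mouse 13) and 0.062 with 1 library left out, and L1_Mus3_dup17767 between -0.034 (without TS-t mouse 5) and 0.58. The difference in elements with a count was -2078 within labels beginning with 20. Class shares that changed sign were, in percentage points within labels beginning with 19, L1ME (1.88), Lx and Lx2 (-0.066), Lx3 and Lx4 (0.12) and Lx8, Lx9 and Lx10 (-0.084), and within those beginning with 20, HAL1 (0.15), L1MA and L1MB (0.063), L1MC and L1MD (0.099), L1ME (0.66), Lx and Lx2 (-0.022), Lx7 (0.089) and Lx8, Lx9 and Lx10 (-0.16). Without the most abundant element of each class HAL1 was at 0.035 and Lx7 at 0.041. No paired analysis was possible because TS-t and WT-t are different mice with no animal label in common, while cortex and hippocampus were paired by mouse.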

Other observations

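Some elements were near 0 in a set of mice and high in the others, in both genotypes and in both tissues of the same mouse. This was looked for after the values of Lx3B_dup3459 had been seen, in the 1105 elements whose 90th percentile over the 30 treated mice was at least 100 CPM of all L1 counts in hippocampus and in cortex. Of these, 50 were below 10% of that percentile in at least 3 hippocampus libraries, and for 16 all of those mice were low in cortex too. For 5 the low mice were the same in both tissues: L1MEg_dup958, Lx3C_dup2489, L1_Mur1_dup6397, Lx9_dup38033 and L1Md_Gf_dup852. L1MEg_dup958 was low in 5 TS-t and 5 WT-t mice, between 35.0 and 95.3 CPM in those mice and between 2762 and 13159.5 in the others in hippocampus, and between 23.2 and 95.6 and between 1635 and 9098 in cortex. L1Md_Gf_dup852, of a young subfamily, had 0 counts in both tissues of 1 TS-t and 5 WT-t mice and between 42.4 and 277 CPM in hippocampus of the others. Lx3B_dup3459 was low in 3 TS-t and 3 WT-t mice, between 54.2 and 226 CPM in those mice and between 3981 and 17643 in the others in hippocampus, and between 71.1 and 109 and between 1314 and 23710.1 in cortex. None of the 49 of these elements that were tested had an unadjusted p below 0.05 in TS-t vs. WT-t.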
